A study of Mus musculus with 39 samples.

Results

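The comparison set 5 mouse tumours treated with EPAT, antagonists that block EP2 and EP4, receptors for the lipid prostaglandin E2, against 5 tumours treated with an antibody to the checkpoint receptor PD-1, all taken after 5 days of treatment. These 10 libraries, of the 39 in the series, were chosen by the treatment and time point in their sample labels. All came from bulk tumours of Braf-mutated melanoma cells, grown in culture and injected into C57BL/6 mice. Treatment began 7 days after the injection. EPAT was given at 3 mg/mL in doses of 200 µl (30 mpk) on a schedule the labels call bidaily, and anti-PD-1 at 200 µg a dose every 2 to 3 days. The 5 day 5 libraries of mice given only the vehicle of the antagonists, a mixture of DMSO, PEG400 and water, served as a common point of comparison. The day 2 libraries of EPAT (n = 5) and anti-PD-1 (n = 4) were used where the difference is given over time. The labels do not say whether the anti-PD-1 mice also received that mixture or whether an isotype antibody was used. The labels name neither the clone of the cell line nor whether each library is a separate animal, and the p-values then measure the spread between libraries.

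Prostaglandin E2 is made from arachidonic acid by the cyclooxygenases and a terminal synthase, and signals through EP receptors on tumour, stromal and immune cells. EP2 and EP4 couple to Gs proteins and raise cyclic AMP, which dampens the action of T cells, NK cells and dendritic cells and favours suppressive myeloid programmes. PD-1 is an inhibitory receptor of activated T cells, and antibodies to it release T cells from signals of its ligand PD-L1. The comparison thus addressed how tumours under an agent against a myeloid and T cell inhibitory lipid differ from tumours under an agent against a T cell checkpoint.

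Total counts per library were 8895991 to 14943145 in EPAT tumours and 9896094 to 13248170 in anti-PD-1 tumours. Levels are given as CPM, counts scaled to a common library size, on TMM-scaled library sizes. The pigment genes did not mark these tumours as pigmented melanoma: Tyr and Tyrp1 had no count in the 10 libraries, Dct had at most 2, Mlana at most 3 and Pmel at most 8. Mitf, the melanocyte master regulator, which other cells also express, was measured at 34.2 to 77.1 CPM in EPAT tumours and 35.6 to 71.4 CPM in anti-PD-1 tumours. Transcripts of lung epithelium (Sftpc, Sftpa1 and Scgb1a1 together) were counted 1181 and 915 times in EPAT replicates 3 and 4 and 860 and 1036 times in anti-PD-1 replicates 2 and 3, against at most 11 times in the other 6 libraries. EPAT replicate 3 had the fewest counts and the highest share of counts in Gm42418, a gene that overlaps ribosomal RNA, at 12.9%. The titles put EPAT replicate 1 and anti-PD-1 replicate 5 among stems otherwise used for day 2, and the labels' day 5 was followed. EPAT day 2 replicate 5, which enters the day 2 values, in turn carries a stem otherwise used for day 5. Its labelled day 2 was followed too.

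Anti-PD-1 replicates 3 and 4 stood apart from the other 8 libraries. Of 32 gene lists covering immune, stromal, tissue and signalling programmes, these libraries held the 2 highest mean log2 CPM values of the 10 in 15 lists and the 2 lowest in 3. Genes varied more between anti-PD-1 tumours than between EPAT tumours: the SD of log2 CPM was larger in the anti-PD-1 group for 68.7% of the genes tested, with a median SD of 0.312 in EPAT, 0.411 in anti-PD-1 and 0.358 in vehicle tumours. Quality weights estimated by limma-voom were 0.283 and 0.221 for anti-PD-1 replicates 3 and 4 and 0.448 for EPAT replicate 3, against 0.879 to 2.33 for the others. Values without this pair of libraries are given beside the list medians and named genes that moved most, a choice made after the libraries had been seen to be high. Leaving out the highest libraries of 1 group moves a list towards the other group by construction, so such a shift shows how much of a value the pair carries and is no test of direction. By their title numbers the pair matches EPAT replicates 5 and 1, which were the 2 EPAT tumours with the highest summed T cell level (489 and 645 CPM), and values without all 4 of these libraries are given for the main immune lists.

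No gene passed. Of 15070 genes tested with edgeR's quasi-likelihood test, 0 (0%) differed between EPAT and anti-PD-1 tumours on day 5 at an adjusted p under 0.05, and the smallest adjusted p was 0.601. At an unadjusted p under 0.05 there were 903 genes (5.99%), of which 244 (1.62%) were higher and 659 (4.37%) lower in EPAT tumours. DESeq2 called 1 gene, the keratin gene Krt5, whose only counts among the EPAT, anti-PD-1 and vehicle libraries of day 5 were 7 and 4 in anti-PD-1 replicates 2 and 3. Limma-trend called 0 genes and limma-voom with quality weights called 9, all lower in EPAT tumours. Arf3 and Jun, a member of the immediate early list, were among them. Fitted fold changes were above 0 for 46.5% of genes and below 0 for 53.5%, with a median over all genes of -0.02 on the log2 scale. The 5 EPAT libraries lay wholly above the 5 anti-PD-1 libraries for 48 genes (0.319%) and wholly below for 34 (0.226%). Random ordering of 5 against 5 libraries separates shares of genes no smaller than these. Separation of a gene, given below, thus describes its values and is no evidence of a difference.

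**Figure D1:**
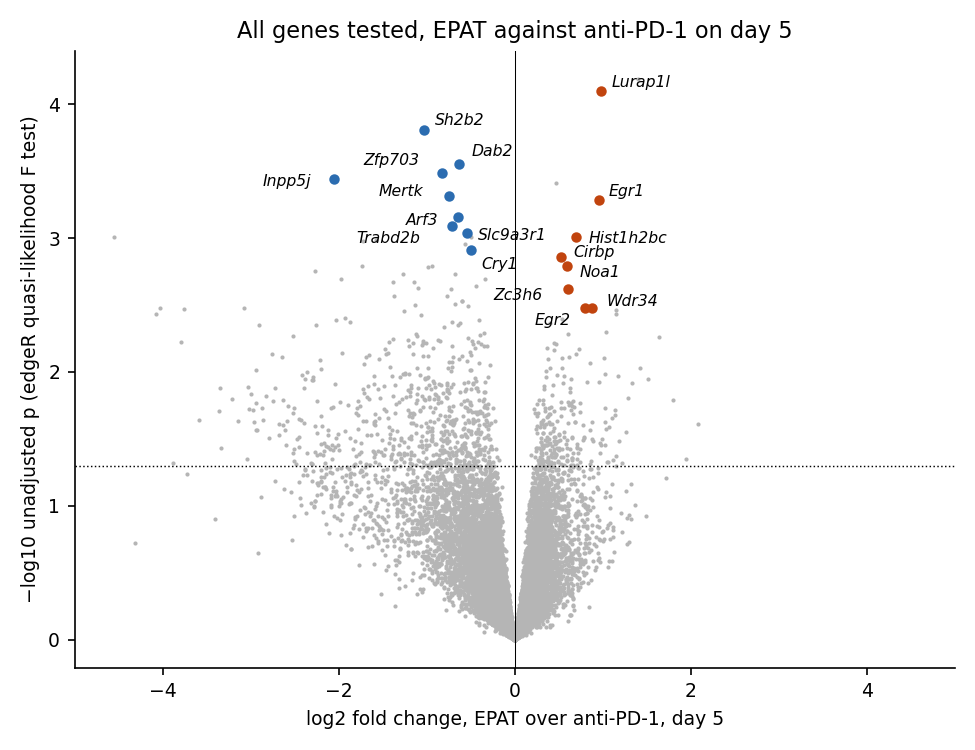
Fitted log2 fold change of each of the 15070 genes (x axis, EPAT over anti-PD-1, day 5) against the minus log10 of its unadjusted edgeR p (y axis), with the dotted line at 0.05 and the leading named genes coloured. More grey points lie above the line on the left (659 genes lower in EPAT tumours) than on the right (244 higher), and none passed the adjusted threshold.

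The genes with the smallest p among those higher in EPAT tumours included a pair of EGR transcription factors, immediate early genes that cells switch on within minutes of a growth factor, antigen receptor or cyclic AMP signal. Egr1 stood at 227, 291, 292, 212 and 186 CPM in EPAT tumours, against 196, 148, 62.5, 54.6 and 163 CPM in anti-PD-1 tumours. Only the highest anti-PD-1 tumour reached into the EPAT range, and anti-PD-1 replicates 3 and 4 were the lowest of all 10. The log2 difference was 0.95 ± 0.25 (SE; edgeR adjusted p = 0.808), and 0.51 without those 2 libraries. Egr2, on chr10:67535475-67542188 in GRCm38, was measured at 15.9, 11.1, 15.2, 16.3 and 11.9 CPM in EPAT tumours, against 9.16, 8.39, 8.43, 4.49 and 10.1 CPM in anti-PD-1 tumours. The groups did not overlap, and the log2 difference was 0.80 ± 0.25 (SE; edgeR adjusted p = 0.808). Nr4a2, an orphan nuclear receptor gene that CREB induces on cyclic AMP signals, stood at 278, 285, 348, 352 and 267 CPM in EPAT tumours, against 256, 216, 111, 74.5 and 237 CPM in anti-PD-1 tumours. The lowest EPAT tumour lay above the highest anti-PD-1 tumour, with a log2 difference of 0.78 ± 0.33 (SE), which was 0.37 without the pair. Its paralogue Nr4a1, which T cell receptor signals also induce, stood at 108, 92.9, 114, 60.3 and 58.4 CPM in EPAT tumours, against 81.3, 34.7, 6.27, 26.1 and 51.7 CPM in anti-PD-1 tumours, and the groups overlapped. Its log2 difference was 1.11, and 0.63 without the pair.

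The promoters of Egr2 and of Cry1, a circadian repressor described further on, are shown. Egr2 separated the groups in every library, and Cry1 did so in the other direction, but separation was not the ground for the choice. The rule took immediate early, cyclic AMP or clock genes among the leading genes or in the fixed set of named genes. Nr4a2 and the clock gene Nr1d2 also separated the groups, but were named only as list members. Egr1 met the rule, and its promoter was left out for a reason other than its values. The sequences are from RefSeq (GRCm38.p6), each from 250 bases before to 50 bases after an annotated start site. Capitals mark matches to TGACG, the core of a cyclic AMP response element, or to CACGTG, an E-box bound by clock factors. For Egr2 the first of 3 overlapping windows that tie for the most matches among its 5 RefSeq windows is given, at chr10:67537619-67537918 on the plus strand, and for Cry1 the window at chr10:85185005-85185304 on the minus strand.
Egr2: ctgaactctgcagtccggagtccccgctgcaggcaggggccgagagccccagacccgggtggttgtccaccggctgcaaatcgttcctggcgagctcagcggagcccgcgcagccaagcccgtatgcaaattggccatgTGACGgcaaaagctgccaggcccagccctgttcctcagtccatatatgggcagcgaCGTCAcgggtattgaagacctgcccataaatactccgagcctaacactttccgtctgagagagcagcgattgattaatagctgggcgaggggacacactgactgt
Cry1: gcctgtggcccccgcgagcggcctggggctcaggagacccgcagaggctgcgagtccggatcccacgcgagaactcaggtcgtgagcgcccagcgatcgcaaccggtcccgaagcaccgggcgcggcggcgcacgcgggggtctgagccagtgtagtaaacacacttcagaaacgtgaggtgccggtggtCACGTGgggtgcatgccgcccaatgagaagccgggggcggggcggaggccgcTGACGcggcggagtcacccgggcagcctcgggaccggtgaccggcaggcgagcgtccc
The Egr2 window held TGACG at 111 bases before the start site and, on the other strand, at 55 bases before it. Of the other Egr2 windows, 1 held CACGTG once and 1 held no match. The Cry1 window, the only one listed for that gene, held TGACG at 8 bases and CACGTG at 60 bases before the start site. Searched on both strands, TGACG occurs in 20.8% of 32851 RefSeq promoter windows of the same length and CACGTG in 7.15%, shares that hold for single windows and not for a window picked among several. The full palindrome TGACGTCA, which contains TGACG and is found in 1.79% of windows, and the EGR site GCGTGGGCG, found in 0.612%, were in neither of these windows.

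The other leading genes higher in EPAT tumours are described next. Lurap1l, on chr4:80910646-80955628, stood at 7.97, 12.8, 12.02, 11.2 and 8.58 CPM in EPAT tumours, against 5.82, 5.04, 3.73, 4.06 and 7.83 CPM in anti-PD-1 tumours. The groups did not overlap, and the log2 difference was 0.98 ± 0.22 (SE; edgeR adjusted p = 0.601). Cirbp, a cold-inducible RNA-binding protein, averaged 38.5 ± 5.54 CPM in EPAT tumours and 26.8 ± 4.41 CPM in anti-PD-1 tumours (SD, n = 5 each). Wdr34, an intermediate chain of the ciliary dynein, averaged 4.33 ± 0.30 CPM in EPAT tumours and 2.36 ± 0.71 CPM in anti-PD-1 tumours. Cirbp, Wdr34 and Zc3h6 also lay wholly above the anti-PD-1 libraries, while the histone gene Hist1h2bc and the mitochondrial GTPase gene Noa1 overlapped.

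Among the leading genes lower in EPAT tumours, Inpp5j had the largest difference. Inpp5j, a phosphatase that removes the 5-phosphate of phosphoinositides, stood at 1.23, 1.08, 0.264, 0.771 and 1.17 CPM in EPAT tumours, against 3.77, 2.73, 7.01, 3.28 and 2.48 CPM in anti-PD-1 tumours. Zfp703, a transcriptional repressor, stood at 57.8, 33.9, 43.97, 41.2 and 41.7 CPM in EPAT tumours, against 67.9, 59.3, 76.9, 111 and 71.5 CPM in anti-PD-1 tumours. Slc9a3r1, a scaffold that links membrane proteins to ezrin, stood at 23.3, 22.4, 20.1, 23.3 and 19.2 CPM in EPAT tumours, against 29.02, 23.4, 39.7, 34.1 and 31.01 CPM in anti-PD-1 tumours. For these 3 genes the groups did not overlap, with log2 differences of -2.06 ± 0.52, -0.82 ± 0.21 and -0.54 ± 0.15 in that order (SE; edgeR adjusted p = 0.808 for each). Mertk, the receptor by which macrophages take up dying cells, averaged 82.9 ± 21.8 CPM in EPAT tumours and 139 ± 53.7 CPM in anti-PD-1 tumours. The endocytic adaptor gene Dab2 averaged 203 ± 20.2 CPM in EPAT tumours and 314 ± 92.7 CPM in anti-PD-1 tumours, and the signalling adaptor gene Sh2b2 averaged 7.63 ± 2.10 CPM and 15.6 ± 6.91 CPM in the same order. In Mertk, Dab2 and Sh2b2 the highest libraries were anti-PD-1 replicates 3 and 4, and the log2 differences were -0.75 for Mertk (-0.33 without the pair), -0.63 for Dab2 (-0.30 without the pair) and -1.03 for Sh2b2 (-0.47 without the pair). Arf3, a Golgi GTPase gene, averaged 51.1 ± 9.09 CPM in EPAT tumours and 80.0 ± 18.7 CPM in anti-PD-1 tumours. Of the 63 named genes, which do not include Jun, Arf3 alone passed in this contrast under any of 28 alternatives. Its adjusted p was 0.0108 in limma-voom.

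**Figure D2:**
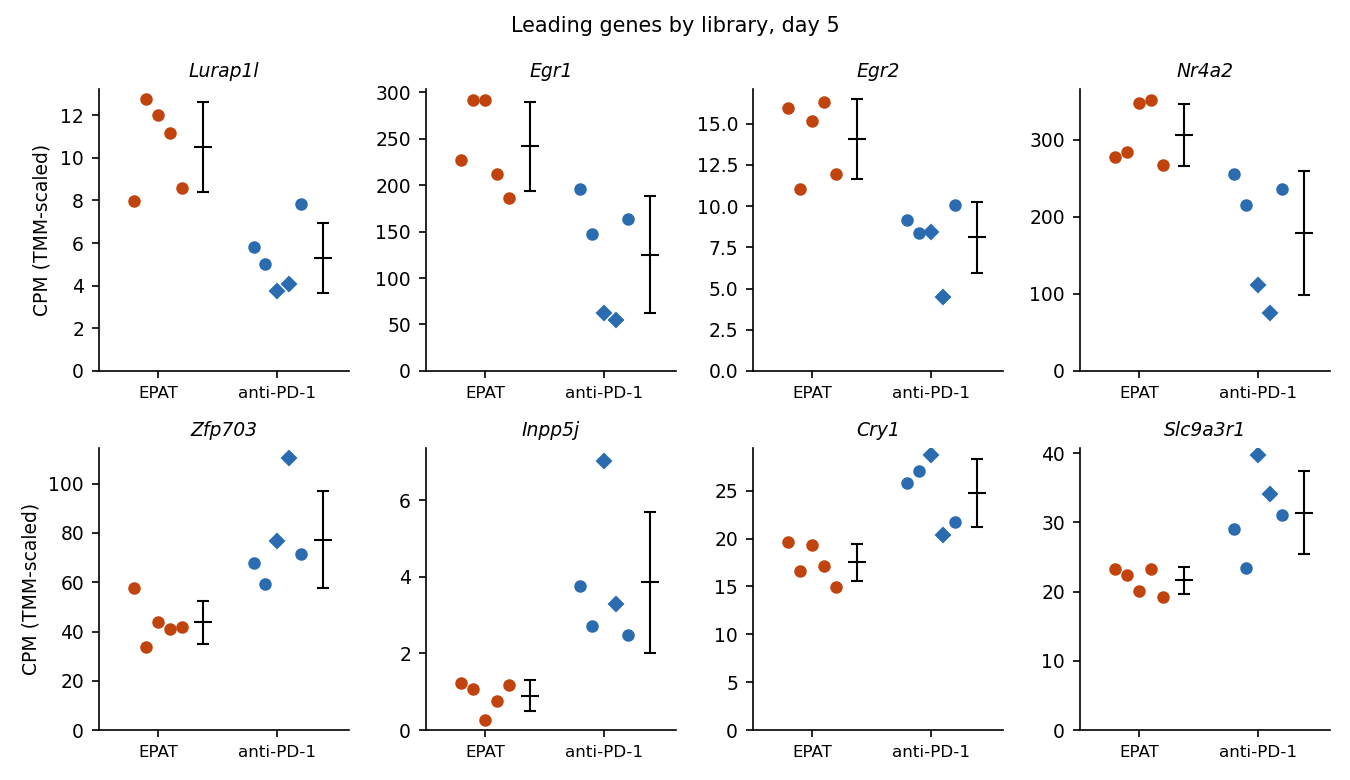
CPM of 8 leading genes (y axes, each from 0) in each EPAT and anti-PD-1 library of day 5. Points are libraries, diamonds are anti-PD-1 replicates 3 and 4, and bars are the mean ± SD. The groups do not overlap for any gene drawn except Egr1, where anti-PD-1 replicate 1 at 196 CPM lies above the lowest EPAT library at 186 CPM.

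The receptors that EPAT blocks were expressed unequally. Ptger2, which encodes EP2, stood at 1.56, 1.62, 0.264, 0.836 and 0.936 CPM in EPAT tumours, against 1.71, 1.05, 4.10, 4.75 and 2.16 CPM in anti-PD-1 tumours. Its highest values were in anti-PD-1 replicates 3 and 4, the groups overlapped, and the log2 difference was -1.38 ± 0.47 (SE), which was -0.64 without the pair. Ptger4, which encodes EP4, stood at 30.7, 17.9, 13.1, 19.7 and 29.2 CPM in EPAT tumours, against 12.3, 11.9, 48.1, 36.8 and 16.7 CPM in anti-PD-1 tumours. Its log2 difference of -0.19 ± 0.31 was 0.70 without the pair and 0.31 when EPAT replicates 1 and 5 were left out as well. The enzymes at the head of the pathway also overlapped between groups. Ptgs2, the inducible cyclooxygenase, stood at 60.4, 74.9, 320, 89.0 and 87.8 CPM in EPAT tumours, against 145, 178, 25.1, 26.7 and 75.2 CPM in anti-PD-1 tumours. Ptgs1, the constitutive cyclooxygenase, stood at 268, 241, 310, 364 and 291 CPM in EPAT tumours, against 273, 239, 111, 46.4 and 271 CPM in anti-PD-1 tumours, where replicates 3 and 4 alone were low. Its log2 difference was 0.65 (0.18 without the pair). Over the whole prostaglandin list 8 of 17 members tested were higher and 9 lower in EPAT tumours, with 0 passing and a median log2 difference of -0.03 beside -0.02 for all genes. Tbxas1, thromboxane synthase, averaged 9.24 ± 2.83 CPM in EPAT tumours and 17.7 ± 14.1 CPM in anti-PD-1 tumours, and its log2 difference of -0.93 turned to 0.22 without anti-PD-1 replicates 3 and 4.

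The list of cyclic AMP and CREB targets, which besides induced genes holds the transcription regulators Creb3 and Crtc2, gave no uniform direction gene by gene. Of 17 tested, 8 were higher and 9 lower in EPAT tumours, the median log2 difference was -0.07, and 2 were higher and 1 lower at an unadjusted p under 0.05. Their summed level nevertheless separated the groups, at 1165, 1088, 1239, 1114 and 1040 CPM in EPAT tumours against 983, 818, 947, 960 and 894 CPM in anti-PD-1 tumours. Nr4a2, which itself separated the groups, made up 27.1% of that sum in EPAT tumours and 19.4% in anti-PD-1 tumours. With Nr4a2 taken out, the sums of the groups overlapped. Rgs2, a regulator of G protein signalling, made up 19.7% in EPAT tumours and 20% in anti-PD-1 tumours. The sum gives weight to abundant genes, and its separation was not shared by the mean log2 level, which was 4.84 ± 0.15 in EPAT tumours and 4.77 ± 0.20 in anti-PD-1 tumours. Of the 32 lists, the summed levels did not overlap for this one and for the mitochondrially encoded genes. The coactivator gene Ppargc1a averaged 0.30 ± 0.16 CPM in EPAT tumours and 1.42 ± 2.14 CPM in anti-PD-1 tumours, where replicate 4 alone held 5.18 CPM. Immediate early genes were higher in EPAT tumours for 14 of 22, with a median log2 difference of 0.07 and 3 at an unadjusted p under 0.05, all higher. Their lowest mean levels were in anti-PD-1 replicates 3 and 4, and without those libraries the median was 0.02. Jun, a member of this list, went the other way in limma-voom with quality weights. Its log2 difference there was -0.60, with an adjusted p of 0.0315.

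Clock genes were lower in EPAT tumours for 15 of 19 tested, with 0 passing and a median log2 difference of -0.17, which was -0.01 without anti-PD-1 replicates 3 and 4. Cry1, a repressor of the clock's activators, stood at 19.6, 16.6, 19.3, 17.1 and 14.9 CPM in EPAT tumours, against 25.8, 27.1, 28.7, 20.4 and 21.7 CPM in anti-PD-1 tumours. The groups did not overlap, and the log2 difference was -0.50 ± 0.14 (SE; edgeR adjusted p = 0.808). Nr1d2, which encodes the repressor REV-ERB beta, stood at 96.1, 116, 113, 112 and 118 CPM in EPAT tumours, against 94.6, 79.4, 85.9, 78.4 and 87.5 CPM in anti-PD-1 tumours, again without overlap and in the other direction. Hlf, an output transcription factor of the clock, averaged 1.85 ± 1.09 CPM in EPAT tumours and 5.25 ± 4.62 CPM in anti-PD-1 tumours, and overlapped, with a log2 difference of -1.49 that was -0.17 without the pair. The labels give no hour of tissue collection, so collection time could not be compared between the groups.

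The target of the antibody and the genes of T cell attack overlapped between the groups. Pdcd1, which encodes PD-1, stood at 16.9, 13.5, 7.39, 7.97 and 11.8 CPM in EPAT tumours, against 14.6, 6.29, 14.8, 42.8 and 8.31 CPM in anti-PD-1 tumours. Cd274, which encodes PD-L1, stood at 63.3, 59.4, 33.5, 37.8 and 54.3 CPM in EPAT tumours, against 54.1, 42.7, 77.4, 50.3 and 47.4 CPM in anti-PD-1 tumours. Cd8a, the co-receptor of cytotoxic T cells, stood at 44.8, 30.2, 12.7, 27.6 and 31.97 CPM in EPAT tumours, against 26.1, 9.97, 53.5, 93.4 and 14.2 CPM in anti-PD-1 tumours. In each of the 3 genes 1 anti-PD-1 library, replicate 3 or 4, held the highest value, and the other 3 anti-PD-1 libraries lay within or below the EPAT range. Ifng, the main effector cytokine, stood at 6.82, 4.497, 2.11, 5.85 and 7.80 CPM in EPAT tumours, against 4.79, 3.15, 19.5, 6.38 and 7.35 CPM in anti-PD-1 tumours. The log2 differences of -0.59 ± 0.49 for Pdcd1, -0.13 ± 0.45 for Cd274, -0.42 ± 0.58 for Cd8a and -0.60 ± 0.62 for Ifng (SE) were 0.24, 0.05, 0.81 and 0.09 without anti-PD-1 replicates 3 and 4. Without EPAT replicates 1 and 5 as well, Cd8a was still higher in EPAT tumours, by 0.49. Cxcl9 and Cxcl10, the chemokines that draw CXCR3-bearing T cells, averaged 482 ± 151 and 99.2 ± 36.6 CPM in EPAT tumours and 420 ± 183 and 77.7 ± 27.8 CPM in anti-PD-1 tumours. Gzmb, the main cytotoxic granule protease, averaged 26.7 ± 11.2 CPM in EPAT tumours and 42.0 ± 19.99 CPM in anti-PD-1 tumours.

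**Figure D3:**
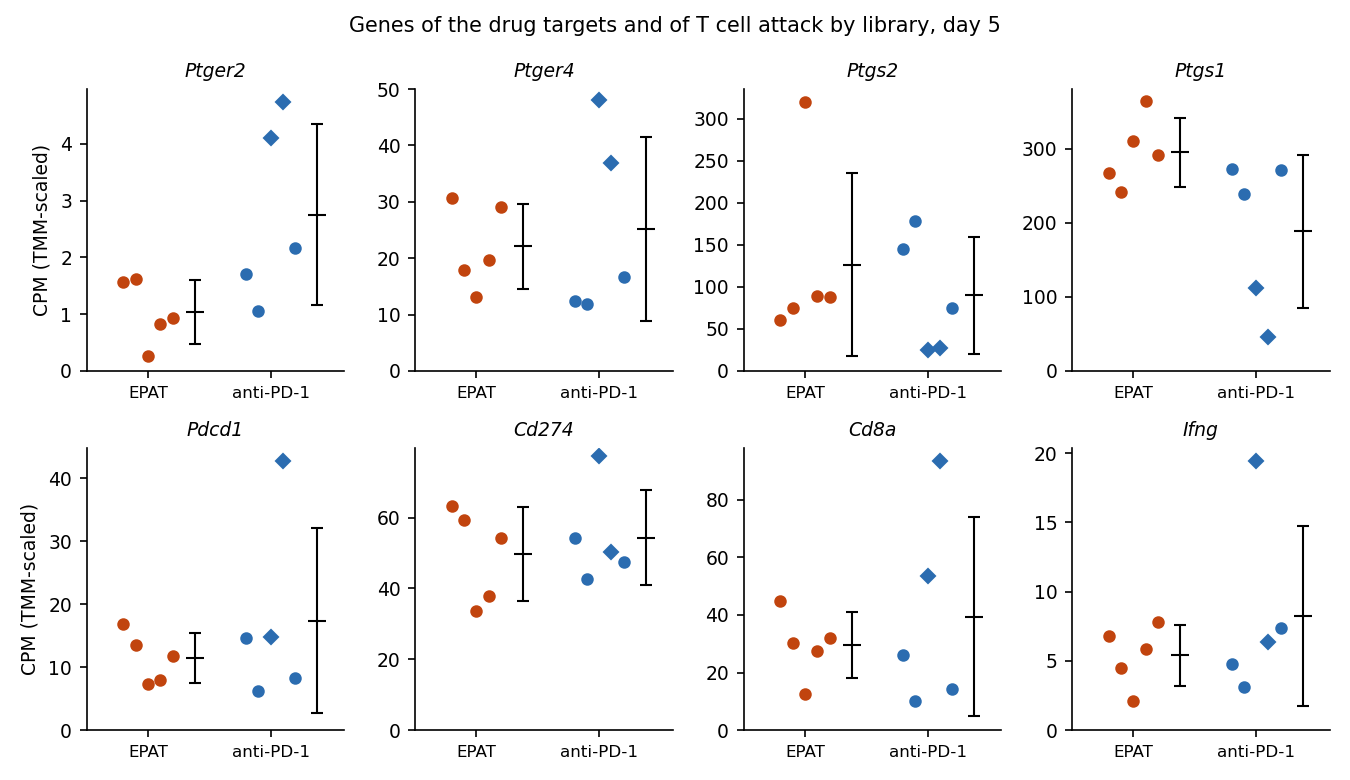
CPM of genes of the drug targets, prostaglandin synthesis and T cell attack (y axes, each from 0) in each EPAT and anti-PD-1 library of day 5, with points for libraries, diamonds for anti-PD-1 replicates 3 and 4, and bars for the mean ± SD. The groups overlap in all 8 panels, and for Cd8a the diamonds at 53.5 and 93.4 CPM are the 2 highest values.

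Lymphocyte lists had fitted differences below 0 in EPAT tumours for most genes, and their size depended on anti-PD-1 replicates 3 and 4. In bulk tissue, fewer cells of a type and less RNA per cell cannot be told apart. Of 23 T cell genes tested, 22 were lower in EPAT tumours with a median log2 difference of -0.65 and 0 passing, and without those 2 libraries 22 of 23 were higher with a median of 0.48. Without EPAT replicates 1 and 5 as well, 14 of 23 were higher and the median was 0.07. The summed T cell level was lower in EPAT in 2 of the 5 pairs with the same title number. The mean log2 level of the list was 4.21, 3.38, 2.48, 3.31 and 3.71 in EPAT tumours, against 3.44, 2.69, 4.52, 5.06 and 3.01 in anti-PD-1 tumours. Checkpoint receptors and ligands were lower for all 11 tested, with a median of -0.54, and higher for 10 of 11 without the pair, with a median of 0.14, but lower for 8 of 11 without all 4 libraries, with a median of -0.06. Entpd1, the ectonucleotidase CD39, led them at 33.9 ± 6.01 CPM in EPAT tumours and 55.6 ± 34.1 CPM in anti-PD-1 tumours, with a log2 difference of -0.72 that was 0.14 without the pair. Cytotoxic and NK genes were lower for 22 of 23, with a median of -0.80 and 7 lower at an unadjusted p under 0.05. Their median was -0.10 without the pair, with 11 of 23 higher, and -0.45 without all 4 libraries, with 18 of 23 lower. The summed cytotoxic and NK level was lower in EPAT in 5 of 5 title-number pairs, a pairing that rests on these same data and is uncertain. Over all lists this count ranged from 0 to 5. It was 4 for the endothelial, keratinocyte and hypoxia lists and 0 for the cyclic AMP and mitochondrially encoded lists. Gzmc, a granzyme with close paralogues whose reads may be shared, stood at 312 CPM in anti-PD-1 replicate 3 and between 40.6 and 114 CPM in the other anti-PD-1 tumours, where EPAT tumours held 16.4 to 62.9 CPM. Its log2 difference was -1.43 (-0.80 without the pair). Regulatory T cell genes were lower for 7 of 8, with a median of -0.36, and for 4 of 8 without the pair, with a median of -0.12. B and plasma cell genes were lower for 7 of 8, with a median of -0.42 that was -0.00 without the pair. The immunoglobulin light chain gene Igkc did not overlap between the groups, at 0.0822 to 0.643 CPM in EPAT tumours and 0.839 to 4.48 CPM in anti-PD-1 tumours.

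Interferon and antigen presentation genes were also mostly lower in EPAT tumours, and part of this difference was present without anti-PD-1 replicates 3 and 4. All 28 type I interferon response genes were lower, with a median log2 difference of -0.43 and 0 passing. Without the pair 24 of the 28 were lower, with a median of -0.16, and without all 4 libraries 25 of 28, with a median of -0.24. Their summed level was lower in EPAT in 5 of 5 of the uncertain title-number pairs. Oas2, an antiviral synthetase, averaged 10.5 ± 3.08 CPM in EPAT tumours and 21.96 ± 10.04 CPM in anti-PD-1 tumours, with overlap between 12.8 and 13.2 CPM. Interferon-gamma response genes were lower for 19 of 22, with a median of -0.27, and for 18 of 22 without the pair, with a median of -0.25, and 20 of 22 without all 4 libraries, with a median of -0.31. Il18bp, an interferon-induced decoy for IL-18, averaged 23.3 ± 8.27 CPM in EPAT tumours and 46.9 ± 18.5 CPM in anti-PD-1 tumours. Cxcl9 and Cxcl10 were among the 3 members of this list that were higher, with log2 differences of 0.20 and 0.35. Both stayed above 0 in all 28 alternatives. MHC class I genes were lower for 16 of 18, with a median of -0.24 that was -0.10 without the pair. Their leading member H2-Q7, which has near-identical copies, averaged 126 ± 23.6 CPM in EPAT tumours and 181 ± 75.5 CPM in anti-PD-1 tumours. MHC class II genes were lower for 9 of 10, with a median of -0.56, but higher for 10 of 10 without the pair, with a median of 0.16, and lower for 7 of 10 without all 4 libraries, with a median of -0.11. The log2 differences of the genes named here were -1.06 for Oas2 (-0.50 without the pair), -1.004 for Il18bp (-0.54 without the pair) and -0.52 for H2-Q7 (-0.05 without the pair).

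Myeloid lists were also mostly lower in EPAT tumours. Neutrophil genes were lower for all 12 tested, with a median log2 difference of -1.22, 5 lower at an unadjusted p under 0.05 and 0 passing, and without the pair 8 of 12 were higher, with a median of 0.25, but without all 4 libraries 8 of 12 were lower, with a median of -0.09. The 2 highest mean levels of this list were in anti-PD-1 replicate 3 and EPAT replicate 1. Retnlg, a neutrophil resistin-like gene, held 16.4 and 8.89 CPM in anti-PD-1 replicates 3 and 4, where the other 3 anti-PD-1 libraries held 1.36 to 3.17 CPM and EPAT tumours 1.06 to 2.63 CPM. Inflammatory monocyte genes were lower for all 12, with a median of -0.54 that was 0.01 without the pair, and Plac8 led them at 75.7 ± 16.2 CPM in EPAT tumours and 138 ± 75.7 CPM in anti-PD-1 tumours. Macrophage genes were lower for 16 of 18, with a median of -0.50, and higher for 15 of 18 without the pair, with a median of 0.31, while without all 4 libraries 9 of 18 were higher, with a median of 0.01. The mannose receptor gene Mrc1 averaged 115 ± 27.3 CPM in EPAT tumours and 254 ± 171 CPM in anti-PD-1 tumours and had a log2 difference of -1.14 that was -0.39 without the pair, while Apoe, a lipid carrier of macrophages, had a log2 difference of -1.14 that was 0.65 without the pair. Dendritic cell genes were lower for 13 of 15, with a median of -0.70 that was 0.18 without the pair and -0.21 without all 4 libraries. Ccr7, the receptor of migrating dendritic cells, averaged 8.47 ± 2.90 CPM in EPAT tumours and 14.8 ± 6.06 CPM in anti-PD-1 tumours. Chemokines and their receptors were lower for 21 of 27, with a median of -0.50, 6 lower at an unadjusted p under 0.05, and a median of -0.03 without the pair and -0.25 without all 4 libraries. Ccr1, a receptor of monocytes and neutrophils, stood at 17.997, 13.9, 12.9, 11.95 and 11.9 CPM in EPAT tumours, against 26.2, 27.7, 44.0, 15.5 and 18.9 CPM in anti-PD-1 tumours, and its log2 difference was -0.95, and -0.82 without the pair. Tumour-promoting inflammation genes were lower for 11 of 16, with a median of -0.27 that was -0.10 without the pair, and anti-PD-1 replicate 4 had the lowest summed level of the 10, at 599 CPM. Nos2, the inducible nitric oxide synthase, averaged 1.39 ± 1.09 CPM in EPAT tumours and 3.59 ± 1.35 CPM in anti-PD-1 tumours. The log2 differences of the other myeloid genes named were -1.69 for Retnlg (-0.11 without the pair), -0.86 for Plac8 (-0.16 without the pair) and -0.80 for Ccr7 (-0.37 without the pair).

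**Figure D4:**
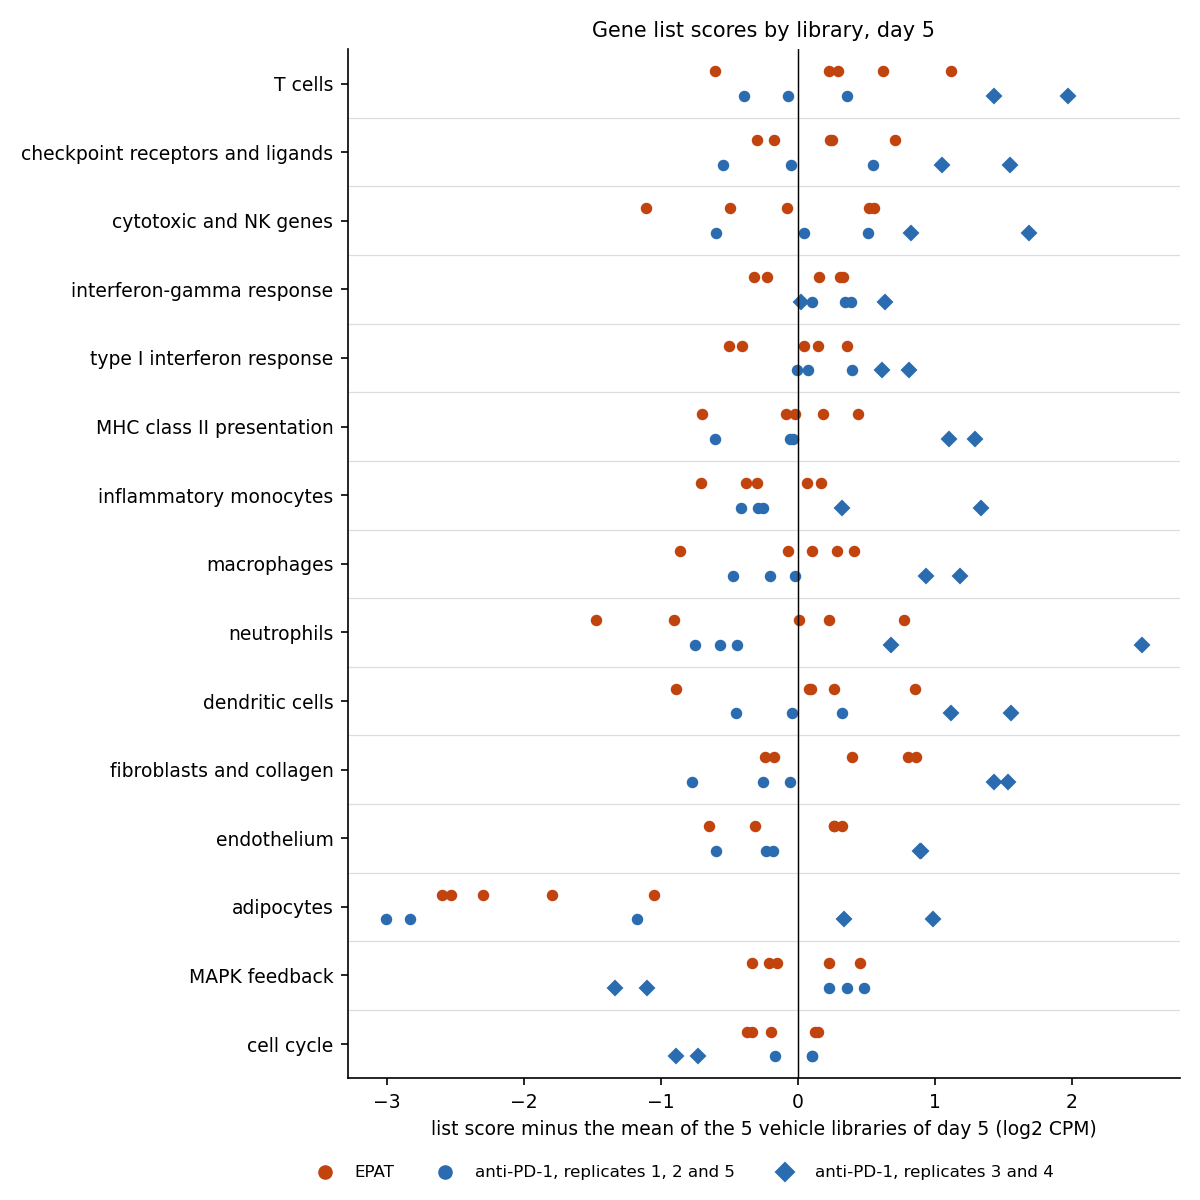
Mean log2 CPM of 15 gene lists in each EPAT and anti-PD-1 library of day 5, less the mean of the 5 vehicle libraries of that day (x axis, log2 units). EPAT is drawn above anti-PD-1 in each row, and diamonds are anti-PD-1 replicates 3 and 4. The diamonds are the 2 highest values in most immune and stromal rows, though not for interferon-gamma response or neutrophils, and lie at the left in MAPK feedback and cell cycle, and no row separates the groups.

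Stromal and neighbouring tissue differed between libraries more than between groups. Skeletal muscle genes summed to 198 to 4029 CPM in EPAT tumours and 21.5 to 28935 CPM in anti-PD-1 tumours, with the top value in replicate 4. All 18 had a fitted log2 difference below 0, with a median of -2.26, which was 2.41 with 18 of 18 higher when replicates 3 and 4 were left out. The mean log2 level of the muscle list ran the other way from its fitted median, at 4.71 ± 1.63 in EPAT tumours and 4.46 ± 3.99 in anti-PD-1 tumours. Adipocyte genes summed to 41.3 to 114 CPM in EPAT tumours and 35.2 to 591 CPM in anti-PD-1 tumours. They were lower for all 10, with a median of -2.09 that was 0.20 without the pair, and Adipoq held 23.7 and 11.8 CPM in anti-PD-1 replicates 3 and 4 but at most 4.09 CPM in the other 8 libraries. Its log2 difference was -2.95 (-0.74 without the pair). Fibroblast and collagen genes were lower for 19 of 22, with a median of -0.24, and higher for 22 of 22 without the pair, with a median of 0.83. Endothelial genes were lower for all 14, with a median of -0.28, and higher for 12 of 14 without the pair, with a median of 0.37. Keratinocyte genes summed to 5.01 to 6.55 CPM in EPAT tumours and 5.43 to 9.44 CPM in anti-PD-1 tumours, and were lower for 8 of 9, with a median of -1.36 that was -0.91 without the pair. This rests on very few counts, and the median ranged from -2.32 to 0.16 over the alternatives. Lung epithelial genes were higher for 5 of 7, with a median of 0.40, and summed to 1.44 to 183 CPM in EPAT tumours and 0.514 to 110 CPM in anti-PD-1 tumours. Adipocyte levels were thus high in the same anti-PD-1 libraries as several of the immune lists. Muscle levels were so in replicate 4, while EPAT replicate 2 at 4029 CPM lay above anti-PD-1 replicate 3 at 3588 CPM. With the muscle score as a covariate, 25 of the 32 list medians were below 0, where 26 were without it, and the T cell, type I interferon and neutrophil medians were -0.51, -0.41 and -0.93. The count at an unadjusted p under 0.05 was then 851, with 355 higher and 496 lower. The mean muscle scores of the groups were close, at 4.71 in EPAT and 4.46 in anti-PD-1 tumours. A covariate so nearly balanced cannot show what part of the differences muscle carries. The part of muscle and of adipocyte transcripts was thus not tested.

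Proliferation and MAPK lists ran the other way in the same libraries. Cell cycle genes were higher in EPAT tumours for 27 of 29, with a median log2 difference of 0.14, 2 at an unadjusted p under 0.05 and 0 passing. Their mean log2 level was 5.89, 6.39, 6.41, 5.92 and 6.06 in EPAT tumours, against 6.36, 6.36, 5.53, 5.37 and 6.09 in anti-PD-1 tumours. Anti-PD-1 replicates 3 and 4 were the 2 lowest of the 10, and without them 6 of 29 were higher, with a median of -0.11. Without EPAT replicates 1 and 5 as well, 13 of 29 were higher, with a median of -0.02. The kinetochore genes Spc25 and Spc24 averaged 67.5 ± 12.3 and 23.6 ± 3.16 CPM in EPAT tumours and 52.2 ± 14.1 and 18.3 ± 3.51 CPM in anti-PD-1 tumours, with log2 differences of 0.37 for Spc25 (0.14 without the pair) and 0.37 for Spc24 (0.21 without the pair). MAPK feedback genes, which report signalling downstream of mutant Braf, were higher for 9 of 14, with a median of 0.07, and for 2 of 14 without the pair, with a median of -0.42. Dusp6, the ERK phosphatase, stood at 127 and 137 CPM in anti-PD-1 replicates 3 and 4 and at 286 to 354 CPM in the other anti-PD-1 tumours, where EPAT tumours held 309 to 402 CPM. Its log2 difference was 0.51 (0.12 without the pair). Braf itself was measured at 64.2 to 77.5 CPM in EPAT tumours and 63.9 to 84.2 CPM in anti-PD-1 tumours. Melanoma lineage and dedifferentiation genes were lower for 8 of 11, with a median of -0.45 that was -0.26 without the pair, led by the neural crest marker S100b at 0.45 ± 0.42 CPM in EPAT tumours and 1.69 ± 1.54 CPM in anti-PD-1 tumours, a log2 difference of -1.82 that was -1.01 without the pair.

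Metabolic and stress lists had 0 members passing in each. The heat shock and glucocorticoid-induced medians lay nearer to that of all genes than the mitochondrially encoded and hypoxia medians did. The 8 mitochondrially encoded genes tested were higher for 4 and lower for 4, with a median log2 difference of 0.13. Their summed level separated the groups, at 22783, 25962, 22558, 25197 and 27141 CPM in EPAT tumours against 20058, 19300, 17868, 20894 and 21201 CPM in anti-PD-1 tumours. The abundant mt-Nd4, mt-Nd2, mt-Cytb and mt-Nd1, all respiratory chain subunits, made up most of both sums. The share of all counts on the mitochondrial genome overlapped, at 6.34% to 11.6% in EPAT tumours and 5.31% to 9.80% in anti-PD-1 tumours. Hypoxia and glycolysis genes were lower for 13 of 20, with a median of -0.17. That median was -0.20 without anti-PD-1 replicates 3 and 4, with 3 of 20 higher, and -0.19 without EPAT replicates 1 and 5 as well. Pfkfb3, a glycolytic regulator, averaged 38.5 ± 11.6 CPM in EPAT tumours and 58.5 ± 26.8 CPM in anti-PD-1 tumours. Its log2 difference of -0.60 was -0.06 without the pair. Heat shock genes were higher for 7 of 14, with a median of 0.02, and glucocorticoid-induced genes for 5 of 12, with a median of -0.09.

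**Figure D5:**
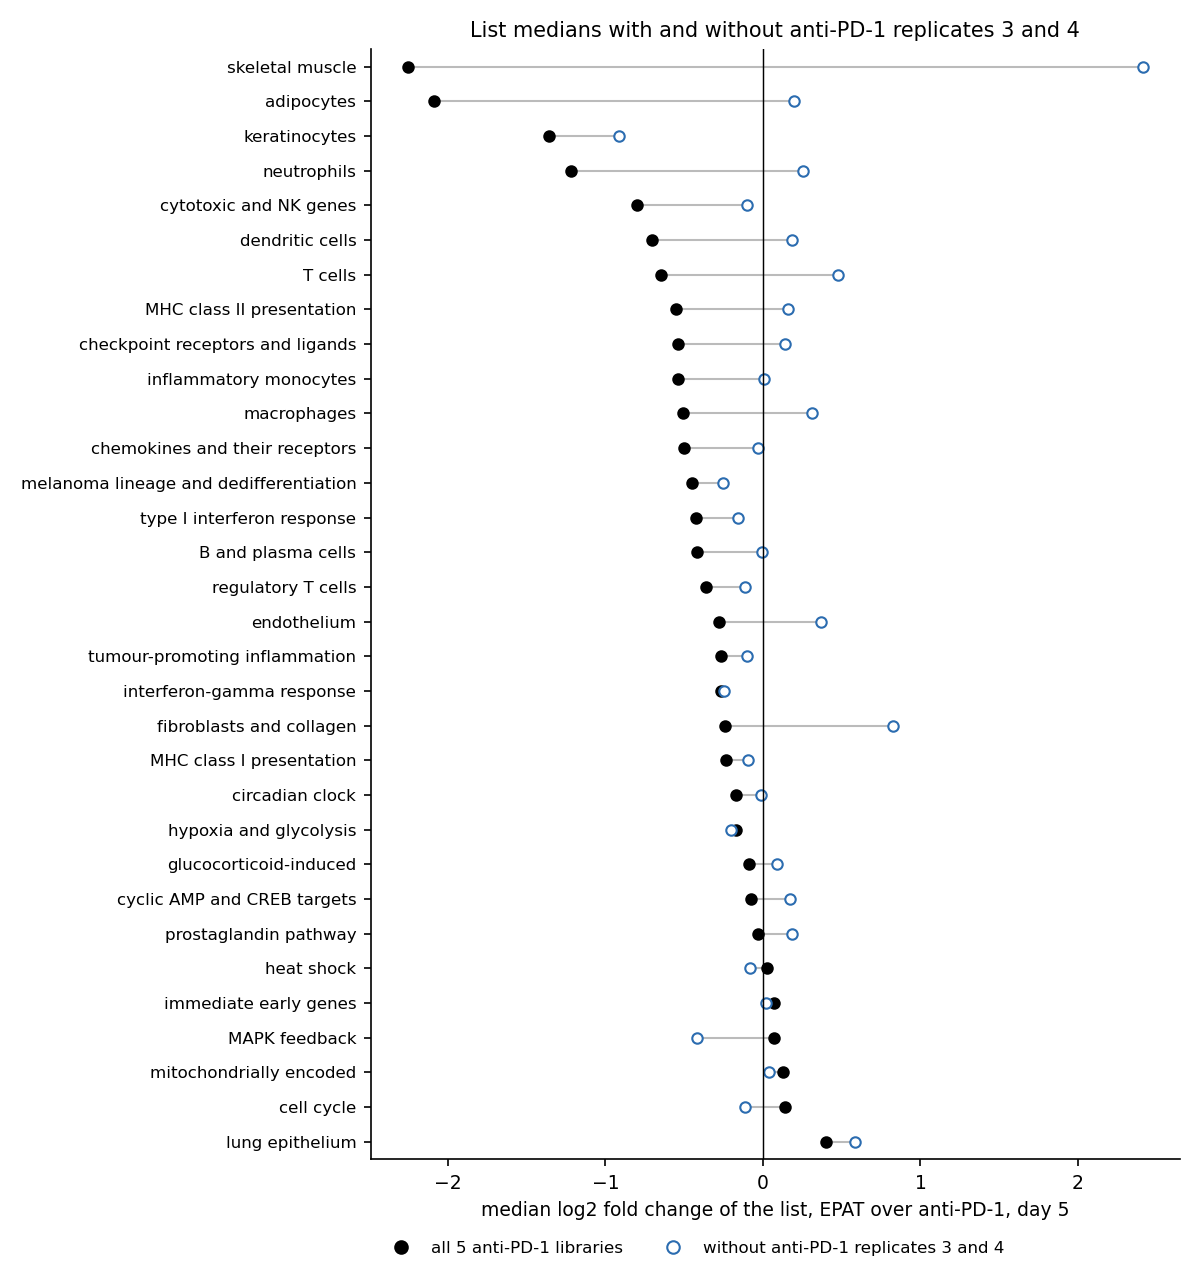
Median fitted log2 fold change (x axis, EPAT over anti-PD-1, day 5) of the members tested of each of the 32 lists, with all 10 libraries and without anti-PD-1 replicates 3 and 4. With all libraries 26 medians lie below 0, and without the pair 15 do; skeletal muscle moves the farthest, from -2.26 to 2.41.

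Set beside the shared vehicle tumours of day 5, the leading genes differed in which treatment departed from vehicle. EPAT against vehicle gave 0 genes called (0%) by edgeR with 256 at an unadjusted p under 0.05 (1.70%), and DESeq2 and limma-voom each called 3, Egr1, Egr2 and Cry1, while limma-trend called 0. Anti-PD-1 against vehicle gave 0 genes called (0%) with 1077 at an unadjusted p under 0.05 (7.15%), 1 by DESeq2 and 0 by limma-trend and limma-voom. Both comparisons use the same 5 vehicle libraries, so their values are listed without a test between them. Egr1 averaged 242 ± 47.8 CPM in EPAT, 125 ± 63.0 CPM in anti-PD-1 and 97.7 ± 15.8 CPM in vehicle tumours, with log2 differences from vehicle of 1.31 ± 0.25 for EPAT and 0.35 ± 0.25 for anti-PD-1 (SE). Egr2 averaged 14.1 ± 2.42 CPM in EPAT, 8.11 ± 2.14 CPM in anti-PD-1 and 5.81 ± 1.63 CPM in vehicle tumours. Cry1 averaged 17.5 ± 1.96 CPM in EPAT, 24.7 ± 3.56 CPM in anti-PD-1 and 28.2 ± 3.82 CPM in vehicle tumours. The EPAT mean was thus the one farther from vehicle for Egr1, Egr2 and Cry1. These genes were in the fixed set, chosen with earlier results of these data known, so this is no independent finding. Lurap1l averaged 10.5 ± 2.12 CPM in EPAT, 5.30 ± 1.64 CPM in anti-PD-1 and 9.70 ± 2.85 CPM in vehicle tumours, and there the anti-PD-1 mean was farther. The T cell list had medians of 0.34 for EPAT against vehicle and 0.94 for anti-PD-1 against vehicle, the type I interferon list -0.08 and 0.36, and the neutrophil list -0.47 and 0.68, in the same order. Without anti-PD-1 replicates 3 and 4 the anti-PD-1 medians against vehicle were -0.03 for T cells, 0.12 for type I interferon and -1.02 for neutrophils. The cell cycle list had medians of -0.16 for EPAT and -0.24 for anti-PD-1 against vehicle, the anti-PD-1 value being 0.05 without the pair.

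On day 2 the same pair of treatments gave 0 genes called (0%) by edgeR, 242 at an unadjusted p under 0.05 (1.61%) and a smallest adjusted p of 0.999. DESeq2 and limma-trend called 0 there and limma-voom 6. The difference of the day 5 and day 2 contrasts gave 0 genes called (0%) by edgeR, DESeq2, limma-trend and limma-voom, with 206 at an unadjusted edgeR p under 0.05 (1.37%). Egr1 averaged 96.4 ± 33.8 CPM in EPAT tumours and 101 ± 14.3 CPM in anti-PD-1 tumours on day 2, where the day 5 means were 242 and 125 CPM. The Egr1 contrast on day 5 less that on day 2 was 1.02 ± 0.36 on the log2 scale (SE; edgeR, unadjusted p = 0.00777, adjusted p = 0.9999). Egr2 averaged 5.96 ± 1.39 CPM in EPAT tumours and 6.38 ± 1.76 CPM in anti-PD-1 tumours on day 2. Cry1 averaged 25.7 ± 1.83 CPM in EPAT tumours and 22.97 ± 2.58 CPM in anti-PD-1 tumours on day 2. The Cry1 contrast on day 5 less that on day 2 was -0.66 ± 0.21 on the log2 scale (SE; edgeR, unadjusted p = 0.00304, adjusted p = 0.9999). Zfp703 was lower in EPAT tumours on day 2 as well, at 44.7 ± 12.97 CPM against 71.8 ± 10.8 CPM in anti-PD-1 tumours. The T cell list, with a median of -0.65 on day 5, had a median of -0.06 on day 2, while inflammatory monocyte genes had -0.51 and neutrophil genes -0.61 on day 2.

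Libraries with and without lung transcripts were also compared within each kind, 2 against 2 and 3 against 3, as differences of mean log2 CPM with no test. Egr1 differed by 1.37 among libraries with lung transcripts and 0.94 among those without, Egr2 by 0.89 and 0.77, and Cry1 by -0.61 and -0.41. The T cell list differed by -0.71 among libraries with lung transcripts and -0.07 among those without, and the neutrophil list by -1.77 and 0.24. Each kind held 1 of the libraries that stood apart, anti-PD-1 replicate 3 with lung transcripts and replicate 4 without. With the title number as a replicate block in the fit of all libraries, 0 genes were called and 757 had an unadjusted p under 0.05; in a fit of the 10 libraries alone the block gave 1507 and no block 481, again with 0 called.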

How the data were processed

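RNA from bulk tumours was made into libraries with the QuantSeq FWD 3′ mRNA kit, per the labels' protocols, which counts the 3′ end of a transcript and so carries no length term. The extraction text speaks of day 4, unlike the time-point labels, which were followed. Per the submitters' processing notes, bcl2fastq, STAR, featureCounts and limma were used with mm10/GRCm38. Their versions and the strand setting of the counting were not given. The authors deposited raw counts per gene (39179 genes, 13751 with no count) and a table of log2 CPM (16095 genes). The deposited log2 values equal log2(count + 0.5) less a constant per library.

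Counts were filtered (filterByExpr, minimum count 10 and total 15), scaled by TMM and fitted in edgeR 4.0.16 (R 4.3.3) with a quasi-likelihood F test over all 39 libraries and 8 group means, 31 residual degrees of freedom and a common biological coefficient of variation of 0.323. P-values were Benjamini-Hochberg adjusted over 15070 genes, with a threshold of 0.05. The SE is the log2 difference over the root of F. DESeq2 1.42.0, limma 3.58.1 and the alternatives below were run beside it. The statistical scripts were tested on simulated data. Intervals and floors are not used, and depth enters through the count model. Symbols and coordinates are from GENCODE on GRCm38.

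The members and the 32 lists (528 symbols, 495 tested) were chosen with earlier results of these data known. Named genes were the 8 in each direction with the smallest p, at a mean log2 CPM of at least 1 and with no clone name. Up to 3 leading members of each list were added, and a fixed set of drug target and effector genes with Egr1, Egr2 and Cry1. DESeq2 and limma-voom also called Egr1, Egr2 and Cry1 for EPAT against vehicle in these same data. List values are counts and medians with no test. Replicates are numbered in the order of the records. Libraries with the same number after the hyphen in their titles deviated together from their group means (correlations of 0.123 to 0.575 in 5 of 5 pairs), so those numbers were taken to pair libraries. Different numbers gave -0.524 to 0.486. EPAT number 5 correlated at 0.486 with anti-PD-1 number 4 and at 0.463 with number 5. EPAT number 1 correlated at 0.151 with anti-PD-1 number 5 and at 0.123 with number 1. The labels do not say what the number means, so the pairing is uncertain. No pair of libraries agreed within sampling noise.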

Additional observations from a re-analysis of the deposited data

Results flagged for a closer look

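Of 190 sets of 5 values (the named genes and list scores in each group) 15 held a library far from the other 4, which is 7.89% where chance flags about 1 in 20 groups. Of these, 8 were in EPAT tumours and 7 in anti-PD-1 tumours, and each of the 7 was replicate 3 or 4. In EPAT replicate 3 the distant values were Ptgs2 at 320 CPM, Il18bp at 8.98 CPM and Ccl8 at 69.7 CPM. In EPAT replicate 1 they were Zc3h6 at 18.4 CPM, Nr1d2 at 96.1 CPM, Ccr7 at 13.5 CPM and Nos2 at 3.29 CPM. In EPAT replicate 5 it was Cirbp at 48.2 CPM. In anti-PD-1 replicate 3 they were Inpp5j at 7.01 CPM, Ifng at 19.5 CPM and Gzmc at 312 CPM. In anti-PD-1 replicate 4 they were Pdcd1 at 42.8 CPM, Ppargc1a at 5.18 CPM, Acta2 at 363 CPM and Mb at 182 CPM.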

How the results depend on the processing

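Over 28 alternatives, 47 of 63 named genes kept their direction in all of them, among them Egr1 (0.50 to 1.17), Egr2 (0.59 to 0.88), Lurap1l (0.67 to 1.26), Cry1 (-0.58 to -0.44) and Inpp5j (-2.30 to -1.65). Of 1750 such values 37 were reversed, in 16 genes, and the cause was not tested. Without anti-PD-1 replicates 3 and 4, an alternative chosen after seeing the data, the log2 differences were 0.70 for Ptger4, -0.076 for Ptgs2, 0.24 for Pdcd1, 0.048 for Cd274, 0.093 for Ifng, 0.81 for Cd8a, 0.22 for Tbxas1, 0.17 for Ppargc1a, 0.039 for Zap70, 0.14 for Entpd1, 0.10 for Cd74, 0.65 for Apoe, 0.19 for Acta2, 0.35 for Vwf, 2.59 for Mb and 0.42 for Trp63. In limma-voom with quality weights they were 0.60 for Ptger4, -0.21 for Ptgs2, 0.062 for Pdcd1, 0.0026 for Cd274, 0.049 for Ifng, 0.66 for Cd8a, 0.058 for Tbxas1, 0.50 for Apoe, 0.25 for Vwf and 2.22 for Mb. Without EPAT replicates 1 and 5 as well, which share title numbers with that pair and were left out after seeing the data, they were 0.31 for Ptger4, 0.49 for Cd8a, 0.34 for Apoe, 0.12 for Vwf and 2.73 for Mb. With 1 library left out, Ptger4 ranged from -0.36 to 0.19, Cd274 from -0.23 to 0.032 and Ifng from -0.80 to 0.0059, each highest without anti-PD-1 replicate 3. Pdcd1 ranged from -0.80 to 0.050 and Cd8a from -0.66 to 0.18, each highest without anti-PD-1 replicate 4, and Ptgs2 from -0.21 without EPAT replicate 3 to 0.87 without anti-PD-1 replicate 2. The count of 0 genes called on day 5 became 1 with DESeq2 and 9 with limma-voom, and on day 2 it became 6 with limma-voom. EPAT against vehicle had 1 gene called in a fit of those groups alone, 0 to 1 when 1 library was left out (1 without anti-PD-1 replicate 3 or 4), 1 without both or without those 2 and EPAT replicates 1 and 5, 1 with lung transcripts at 10 counts as a covariate, and 3 with DESeq2 or limma-voom. Anti-PD-1 against vehicle had 1 with DESeq2. The 903 genes at an unadjusted p under 0.05 became 481 in a fit of the 10 libraries alone, 575 in a fit of the 20 day 5 libraries, 1823 with limma-voom, 1738 without EPAT replicate 1 and anti-PD-1 replicate 5, and 329 (without anti-PD-1 replicate 4) to 1616 (without anti-PD-1 replicate 2) when 1 library was left out. Leaving out anti-PD-1 replicate 1, EPAT replicate 3 or EPAT replicate 4 gave 1357, 567 and 592. Without anti-PD-1 replicates 3 and 4 the count was 742, with 439 higher and 303 lower, and without EPAT replicates 1 and 5 as well it was 386, with 198 higher and 188 lower. With the title number as a replicate block the count was 757 in the fit of all libraries and 1507 in the fit of the 10 alone, and the block changed no call. Of 32 list medians, 14 moved from below 0 to above it and 3 from above to below without anti-PD-1 replicates 3 and 4. With all 10 libraries 26 were below 0, without those 2 15 were, and without EPAT replicates 1 and 5 as well 20 were. The direction of many list medians thus depends on which libraries are compared. A difference that did not pass is not shown to be absent.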

Other observations

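Several genes outside the lists also had groups that did not overlap, and these were chosen after their values were seen. None passed the edgeR test, and separation alone is no evidence of a difference. The deacetylase gene Hdac4 averaged 11.6 ± 1.61 CPM in EPAT tumours and 16.6 ± 1.75 CPM in anti-PD-1 tumours (SD, n = 5 each). Rhbdf2, which encodes iRhom2, a cofactor of the protease that sheds TNF, averaged 11.3 ± 1.49 CPM in EPAT tumours and 16.7 ± 1.51 CPM in anti-PD-1 tumours. The semaphorin receptor gene Plxnb2 averaged 103 ± 9.68 CPM in EPAT tumours and 131 ± 11.8 CPM in anti-PD-1 tumours. Ceacam1, an inhibitory adhesion receptor, averaged 4.84 ± 1.63 CPM in EPAT tumours and 8.90 ± 1.61 CPM in anti-PD-1 tumours. In the other direction, Ung, a uracil DNA glycosylase, averaged 14.6 ± 1.75 CPM in EPAT tumours and 10.3 ± 1.35 CPM in anti-PD-1 tumours. The RNA-binding gene Rbmx averaged 23.2 ± 1.38 CPM in EPAT tumours and 18.7 ± 1.41 CPM in anti-PD-1 tumours.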
